A study of Mus musculus with 6 samples.

Results

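The cadherins and immunoglobulin adhesion molecules described here are 10 genes of the 25140 in a count table of mouse fibroblasts treated with TGFβ or vehicle. They are the cadherins *Cdh2*, *Cdh3*, *Cdh4*, *Cdh6*, *Cdh10*, *Cdh11* and *Cdh13* and the immunoglobulin superfamily members *Ncam1*, *Vcam1* and *Icam1*, picked by symbol, and all 10 were listed. They were picked with the TGFβ against vehicle results of this table known, so their differences between the groups are given below as a description, with no p-value, and nothing is read from how many pass a threshold. RNA-seq of polyadenylated mRNA was made from 3 vehicle and 3 TGFβ libraries of C57BL/6 cells at passage 1. The labels and the study's methods call the cells primary cardiac fibroblasts, from the adult heart by the labels, while the study's results call them mouse embryonic fibroblasts. By the labels all 6 cultures were held in 1% FBS for 16 h, and the TGFβ group then had 10 ng/ml TGFβ for 24 h, during which the vehicle group had none. The study's methods instead give 1% FBS from 24 h before the treatment and throughout it. No genetic change is named for either group. The study calls the libraries biological replicates but does not say whether each came from its own animals, so p-values measure the spread between these libraries.

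Classical cadherins join neighbouring cells by calcium-dependent binding of their extracellular repeats, mostly cadherin to like cadherin, and are tied to actin inside the cell through β-catenin and α-catenin. *Cdh2* encodes N-cadherin, the classical cadherin of mesenchymal cells and of the cardiac intercalated disc, and *Cdh11* encodes OB-cadherin, known from fibroblasts, bone cells and myofibroblast contacts. The immunoglobulin superfamily members bind without calcium. NCAM1 binds itself and the FGF receptor, whereas VCAM1 and ICAM1 are cytokine-induced ligands for leukocyte integrins, on endothelium and on fibroblasts alike.

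The count columns carry no replicate number, so the libraries are named here by letters in the order of the table. Vehicle libraries A, B and C held 31072338, 29296570 and 29331999 counts, and TGFβ libraries D, E and F held 27851677, 28894151 and 28641986. Fibroblast markers were high in each library, with the 10 markers summing to 53447 to 63270 CPM with vehicle and 49870 to 55727 CPM with TGFβ (CPM, counts over the TMM-scaled library total). Of these markers, 8 were lower and none higher by edgeR's quasi-likelihood test at an adjusted p of 0.05. By edgeR 9 had an unadjusted p under 0.05, and DESeq2 and limma-voom each called 9. *Col1a1* stood higher by 0.23 on the log2 scale and missed the threshold in edgeR's test, where its adjusted p was 0.055. Its TGFβ libraries, at 22537 CPM or more, all lay above its vehicle libraries, at 21690 CPM or less. The 10 endothelial markers summed to between 493 and 757 CPM with vehicle and between 442 and 615 CPM with TGFβ, and were highest in library C of the vehicle group and F of the TGFβ group. All but *Tek*, which was lowest of its groups in C and F, were highest there. None of these 10 passed by edgeR (0 at an unadjusted p under 0.05), DESeq2 (1 at an unadjusted p under 0.05) or limma-voom. Their log2 fold changes with TGFβ ran from -0.54 to 0.25, with a median of -0.295. The 9 leukocyte markers with reads summed to 257 to 366 CPM with vehicle and 223 to 332 CPM with TGFβ, again highest in C and F, and none of the 8 tested passed by edgeR (0 at an unadjusted p under 0.05), DESeq2 or limma-voom. The 8 mesothelial and epithelial markers summed to 22.8 to 64.6 CPM with vehicle and 14.5 to 36.2 CPM with TGFβ, highest in A and D, with none of the 5 tested called by edgeR (1 at an unadjusted p under 0.05), DESeq2 or limma-voom. *Upk3b* made up most of this sum, at 53.4 CPM in A and 24.5 CPM in D. *Upk1b*, *Msln*, *Krt19* and *Krt18* were also highest in A and D, and *Krt8* in C and D. *Epcam* and *Cdh1* were highest in neither A nor D. The cardiomyocyte markers summed to 38.7 to 59.7 CPM with vehicle and 27.4 to 40.6 CPM with TGFβ. *Tnnt2* made up nearly all of this sum, at 58.2 CPM in A and 39.5 CPM in D. Each other cardiomyocyte marker had at most 1.16 CPM in any library. None of the 3 tested was called by edgeR (1 at an unadjusted p under 0.05) or limma-voom and 1 by DESeq2. The Schwann cell markers summed to 13.1 to 15.9 CPM and 12.8 to 14.8 CPM in the 2 groups, with 1 of 5 called, lower. The mural cell markers summed to 249.7 to 284 CPM with vehicle and 135 to 165 CPM with TGFβ, with 1 of 6 called higher and 1 lower. *Notch3*, the gene called lower, made up most of the vehicle sum and went from 206 ± 16.7 to 57.3 ± 7.58 CPM (SD, n = 3 each). *Cspg4*, the gene called higher, went from 19.5 ± 3.21 to 53.3 ± 12.0 CPM (SD, n = 3 each). The other 4 tested were not called. Defining markers at or near 0 were *Epcam* (0 to 3 counts a library) and *Cdh1* (3 to 12), while *Ptprc* had 69 to 132.

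Upstream sequence of 3 of the 10 genes was at hand in RefSeq promoters of build GRCm38.p6. It is printed because these 3 hold *Icam1*, a lower member, and *Cdh6* and *Cdh10*, the members with the largest log2 differences. *Cdh6* and *Cdh10* lie on the same chromosome but far apart. Each line gives the 250 bases before the start that RefSeq annotates, 5′ to 3′ on the gene's strand, with capitals on any match, on either strand, to GGAAATTCC (an NF-κB element), CAGAC (a SMAD box), CATTCC (a TEAD element), CACCTG (an E2-box) or TATAAA (a core promoter box).
Icam1 (chr9:21015690-21015939, plus strand): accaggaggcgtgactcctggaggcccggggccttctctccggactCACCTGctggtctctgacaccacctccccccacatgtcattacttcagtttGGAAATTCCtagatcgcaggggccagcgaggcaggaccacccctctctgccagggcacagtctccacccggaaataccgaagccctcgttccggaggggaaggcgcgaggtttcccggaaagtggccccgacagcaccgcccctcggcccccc
Cdh10 (chr15:18820079-18820328, plus strand): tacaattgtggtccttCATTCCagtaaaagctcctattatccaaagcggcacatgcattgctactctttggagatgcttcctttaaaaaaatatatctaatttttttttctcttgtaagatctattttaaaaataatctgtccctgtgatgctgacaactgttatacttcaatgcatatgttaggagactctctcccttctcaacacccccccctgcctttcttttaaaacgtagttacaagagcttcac
Cdh6 (chr15:13173676-13173925, minus strand): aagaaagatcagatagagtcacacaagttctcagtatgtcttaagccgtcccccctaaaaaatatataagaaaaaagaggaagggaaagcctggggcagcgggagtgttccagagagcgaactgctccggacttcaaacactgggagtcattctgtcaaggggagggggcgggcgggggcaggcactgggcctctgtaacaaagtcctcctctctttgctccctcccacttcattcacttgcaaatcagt
The GGAAATTCC of *Icam1* lies 153 to 145 bases before the start, and 0.286% of the 32851 promoter windows of this length hold those letters. *Icam1* also holds a CACCTG, as do 17.2% of windows. The CATTCC of *Cdh10* lies 234 to 229 bases before the start, and 12.6% of windows hold one. *Cdh6* holds none of the 5 motifs, and none of the 3 windows holds CAGAC, which 42.2% of windows do, or TATAAA, which 12.4% do. The RefSeq start is not that of GENCODE M21 for every gene. For *Cdh10* the window lies inside the gene as GENCODE annotates it, and for *Icam1* the RefSeq start lies before that of GENCODE. The motifs differ in length, so their shares of windows are not comparable with each other. No factor's binding was measured here.

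With TGFβ, *Ncam1* stood at 4.18 times its vehicle mean and *Cdh10* at 7.60 times, *Cdh11* was 1.83-fold and *Cdh3* 2.82-fold higher, and *Vcam1* and *Icam1* stood 1.92-fold and 1.97-fold lower. *Cdh2* had the most reads of the 7 member cadherins in every library and differed least of the 9 members fitted, and *Cdh13* was 1.61-fold lower. *Cdh6* came from almost no reads to about 1 CPM, and *Cdh4* stayed near 0. In the fit over all 14334 genes tested, 40.7% were past an adjusted p of 0.05 by edgeR, 20.5% as higher and 20.1% as lower. The 9 members that passed the filter on low counts were among them, 6 higher and 3 lower, which their choice from this contrast fixes. The groups did not overlap in 8 of the 9, 5 higher and 3 lower, against 53.3% of all genes tested, 27.2% higher and 26.1% lower. Neither count is a result about the members. In bulk RNA, fewer cells of a type and less RNA per cell cannot be told apart. *Cdh6* passed the filter only through its TGFβ libraries, and *Cdh4* did not pass it.

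**Figure D1:**
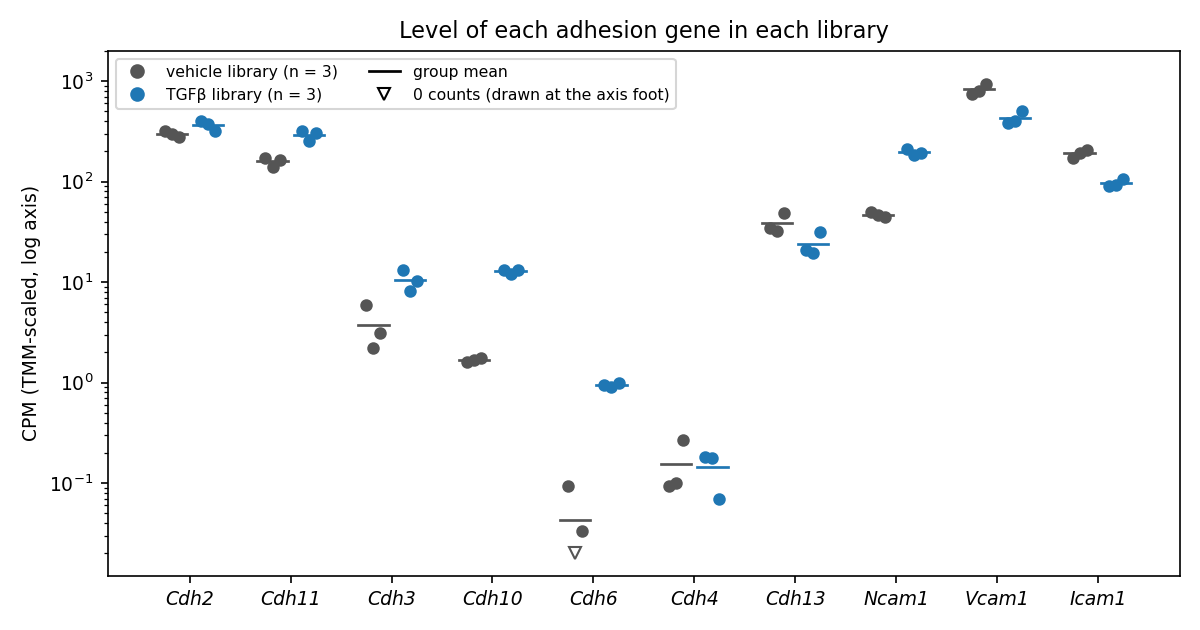
CPM of the 10 genes on a log axis, one point per library, with vehicle in grey, TGFβ in blue and a bar at each group mean. *Cdh10* and *Ncam1* form tight groups far apart (1.60 to 1.74 against 12.1 to 13.1 CPM for *Cdh10*), while the groups overlap for *Cdh2* and *Cdh4*.

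*Cdh2* had 321, 294 and 277 CPM in vehicle libraries A, B and C and 399, 372 and 316 CPM in TGFβ libraries D, E and F. The lowest TGFβ library, F, lay below the highest vehicle library, A, so the groups overlapped. The means were 297 ± 22.1 and 362 ± 42.4 CPM (SD, n = 3 each), and the log2 fold change with TGFβ (log2FC) was 0.28 (standard error 0.09). The log2FC ran from 0.21 without library D to 0.37 without library F as each of the 6 libraries was left out in turn. With the endothelial marker level as a covariate, the log2FC was 0.18.

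*Cdh11* had 173, 141 and 162 CPM with vehicle and 315, 251 and 303 CPM with TGFβ. All TGFβ libraries lay above all vehicle libraries, and B and E were the lowest of their groups. The means were 159 ± 16.0 and 289.7 ± 34.1 CPM (SD, n = 3 each), a log2FC of 0.87 (standard error 0.10) that ran from 0.79 to 0.96 with each library left out. Within a library, reads on *Cdh2* per read on *Cdh11* numbered 1.86, 2.08 and 1.71 with vehicle and 1.26, 1.48 and 1.04 with TGFβ. The ratio of N-cadherin to OB-cadherin reads was thus lower in every TGFβ library than in any vehicle library.

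*Cdh3*, which encodes P-cadherin, known mainly from epithelia, had 5.94, 2.19 and 3.12 CPM with vehicle and 13.3, 8.23 and 10.1 CPM with TGFβ. The groups did not overlap, although the vehicle libraries spread widely, from 65 counts in B to 189 in A. The log2FC was 1.48 (standard error 0.33), from 1.21 without library B to 1.99 without library A. Libraries A and D, the highest for *Cdh3* in their groups, were also those highest in the summed mesothelial and epithelial markers (64.6 CPM in A and 36.2 CPM in D). That sum was mostly *Upk3b*, and the epithelial *Epcam* and *Cdh1* were highest in neither A nor D. The part of mesothelial and epithelial cells in the level of *Cdh3* was not tested.

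*Cdh10*, a type II cadherin known from the nervous system, had 1.60, 1.68 and 1.74 CPM with vehicle and 13.0, 12.1 and 13.1 CPM with TGFβ, from 50 to 52 counts against 337 to 374 counts a library. The groups lay far apart and the libraries of a group close together. The log2FC was 2.92 (standard error 0.09), and it stayed between 2.89 and 2.96 under all 14 alternative settings.

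*Cdh6*, a type II cadherin known from kidney and nervous system development, had 3, 0 and 1 counts in vehicle libraries A, B and C and 26, 25 and 28 counts in TGFβ libraries D, E and F. All TGFβ libraries lay above all vehicle libraries at a level still under 1 CPM. The 79 counts against 4 gave a rate ratio of 21.5, with an exact 95% interval of 8.08 to 80.9. The interval pools the libraries of each group and covers counting error only. Since *Cdh6* was picked with this contrast known, it is not a test of the difference. The fitted log2FC of 4.30 (standard error 0.49) depends on the handling of low counts and ran from 3.78 to 5.48 over the libraries left out, the highest without A and the lowest without B.

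*Cdh4*, which encodes R-cadherin, had 3, 3 and 8 counts with vehicle and 5, 5 and 2 with TGFβ. The groups overlapped. The 12 counts against 14 gave a rate ratio of 0.934 with an exact 95% interval of 0.395 to 2.18. This interval also pools the libraries of each group and covers counting error only. These counts cannot tell a difference within it from none.

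*Cdh13* encodes T-cadherin, which is held to the membrane by a lipid anchor in place of a tail that binds catenins, binds adiponectin, and is abundant on vascular endothelium. It had 34.4, 32.0 and 48.6 CPM with vehicle and 21.0, 19.3 and 31.2 CPM with TGFβ. Each group had a high library, C and F, and the groups did not overlap, by a narrow margin between B and F. The log2FC was -0.69 (standard error 0.21). Libraries C and F were also the highest in *Cdh5*, which encodes the endothelial VE-cadherin, at 271 CPM in C against 156 and 173 CPM in A and B, and at 202 CPM in F against 125 and 134 CPM in D and E. C and F were also highest in the summed leukocyte markers, mostly *Lyz2*, and in the summed mural markers. The mural sums of C and F (284 and 165 CPM) were close to those of B and D (280 and 159 CPM). *Rgs5*, *Kcnj8*, *Abcc9* and *Cspg4* were highest of their groups in C and F. *Notch3*, the largest part of the mural sum with vehicle, was highest in B with vehicle and lowest in F with TGFβ. The part of each cell type was not tested. Without C and F the log2FC of *Cdh13* was -0.73, and with the endothelial marker level as a covariate it was -0.44. With each library left out it ran from -0.94 without F to -0.48 without C.

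**Figure D2:**
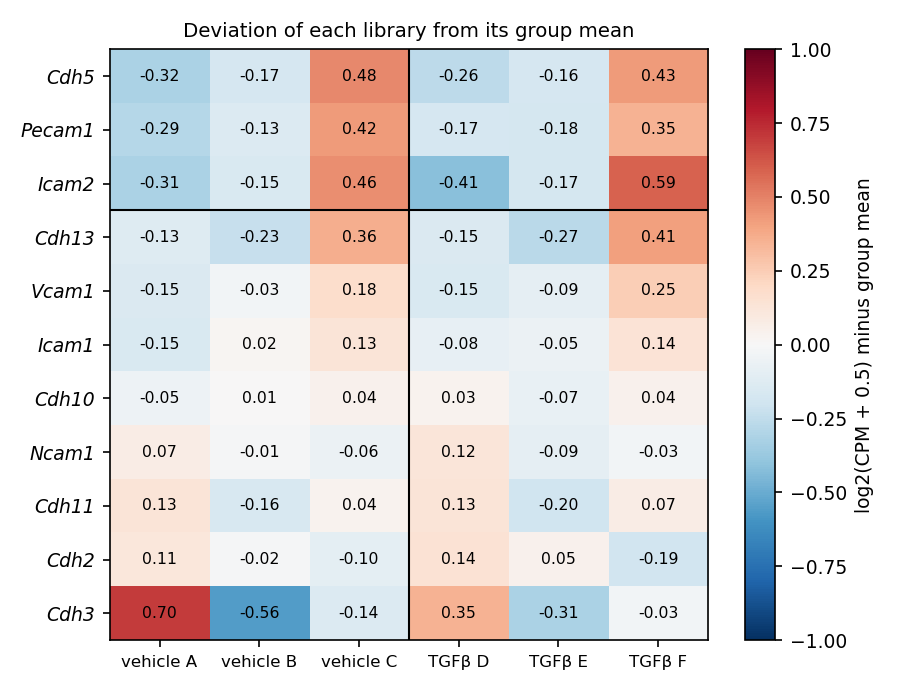
Deviation of each library from its group mean in log2(CPM + 0.5), with columns for the 6 libraries and rows for genes, the endothelial *Cdh5*, *Pecam1* and *Icam2* above the line and members below it. Libraries C and F are the highest of their groups for the endothelial genes and for *Cdh13* (0.36 and 0.41), *Vcam1* (0.18 and 0.25) and *Icam1* (0.13 and 0.14), while *Cdh3* is highest in A and D.

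*Ncam1*, which encodes a neural adhesion molecule also found on muscle and some stromal cells, had 49.3, 46.4 and 44.8 CPM with vehicle and 212, 183 and 191 CPM with TGFβ. The lowest TGFβ library lay far above the highest vehicle library. The means were 46.8 ± 2.28 and 196 ± 15.2 CPM (SD, n = 3 each), a log2FC of 2.06 (standard error 0.07) that stayed between 2.00 and 2.11 under all 14 alternatives. It was 2.02 with the endothelial marker level as a covariate.

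*Vcam1* had 741, 804 and 929 CPM with vehicle and 383, 400.1 and 505 CPM with TGFβ, the highest group means of the 10 genes, although *Cdh2* had more reads than *Vcam1* in library D. The groups did not overlap, and C and F were the highest of their groups. These libraries were also highest in the summed endothelial, leukocyte and mural markers. Their mural sums led by a narrow margin, and *Notch3* was highest in neither C nor F. The part of each cell type was not tested. The means were 825 ± 95.7 and 429 ± 66.3 CPM (SD, n = 3 each), a log2FC of -0.94 (standard error 0.12). It was -0.98 without C and F and -0.80 with the endothelial marker level as a covariate. *Vcam1* is known from endothelium, mural cells and fibroblasts.

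*Icam1* had 171, 193 and 208 CPM with vehicle and 91.3, 93.0 and 106 CPM with TGFβ. The groups did not overlap. The means were 191 ± 18.5 and 96.8 ± 8.15 CPM (SD, n = 3 each), a log2FC of -0.98 (standard error 0.08), which was -0.99 without C and F and -0.88 with the covariate. The reads on *Vcam1* per read on *Icam1* numbered 4.32, 4.16 and 4.47 with vehicle and 4.19, 4.30 and 4.76 with TGFβ. This ratio of the leukocyte ligands overlapped between the groups, with means of 4.32 ± 0.155 and 4.42 ± 0.300 (SD, n = 3 each), so the pair stood lower by much the same proportion. The window before the start of *Icam1* is printed above, and any part of its NF-κB element in this difference was not tested.

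**Figure D3:**
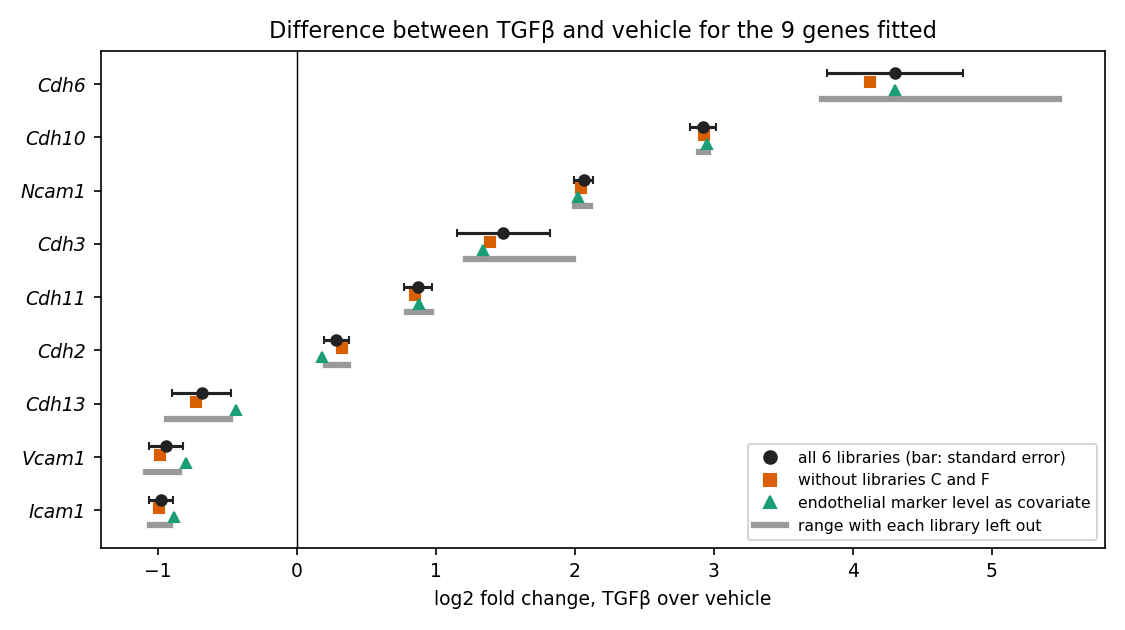
Log2FC of TGFβ over vehicle for the 9 genes fitted, with the standard error in black, the values without libraries C and F (squares), with the endothelial covariate (triangles) and the range with each library left out (grey). Every gene keeps its side of 0, and the covariate moves *Cdh13* from -0.69 to -0.44 and *Cdh2* from 0.28 to 0.18.

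Levels of the members were ranked here per length, as CPM per kb of the union of a gene's exons. Reads and CPM compared between genes in other paragraphs are not scaled by length. With vehicle the order was *Vcam1* (93.0 ± 10.8), *Icam1* (43.8 ± 4.24), *Cdh2* (36.9 ± 2.74), *Cdh11* (17.8 ± 1.80), *Ncam1* (5.41 ± 0.263), *Cdh13* (3.41 ± 0.797), *Cdh3* (0.855 ± 0.445) and *Cdh10* (0.167 ± 0.00703), all as CPM per kb (SD, n = 3), with *Cdh4* and *Cdh6* under these. Of these neighbours, only *Icam1* and *Cdh2* had libraries that overlapped. With TGFβ the order was *Vcam1* (48.4 ± 7.47), *Cdh2* (44.9 ± 5.25), *Cdh11* (32.5 ± 3.83), *Ncam1* (22.6 ± 1.76), *Icam1* (22.2 ± 1.87), *Cdh3* (2.41 ± 0.584), *Cdh13* (2.12 ± 0.572) and *Cdh10* (1.27 ± 0.0584) CPM per kb (SD, n = 3), and then *Cdh6* and *Cdh4*. Here *Vcam1* and *Cdh2*, *Ncam1* and *Icam1*, and *Cdh3* and *Cdh13* overlapped and could not be ranked by the exon union. By that length *Ncam1* stood below *Icam1* in every vehicle library and level with it in the TGFβ libraries. Scaled by the longest transcript instead, *Cdh13* came before *Ncam1* with vehicle, with overlapping libraries, while *Icam1* and *Cdh2* did not overlap. With TGFβ the order by the longest transcript was *Vcam1*, *Cdh2*, *Cdh11*, *Icam1* (38.2), *Ncam1* (29.8), *Cdh13* (5.22), *Cdh10* (3.38) and *Cdh3* (2.41 CPM per kb). No neighbours in that order had overlapping libraries, so the ties and the lower ranks depend on the length used.

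Of the summed level of the 7 member cadherins per kb, *Cdh2* took 62.4% ± 2.91 with vehicle and 53.9% ± 4.57 with TGFβ, *Cdh11* 30.1% ± 1.56 and 39.0% ± 3.58, and *Cdh13* 5.79% ± 1.46 and 2.57% ± 0.796 (SD, n = 3 each). The share of *Cdh11* was higher, and that of *Cdh13* lower, in every TGFβ library than in any vehicle library. For *Cdh2* the shares did not overlap by this length but did when levels were scaled by the longest transcript (61.9% and 54.5%). The sum itself was 59.1 ± 4.15 and 83.4 ± 6.75 CPM per kb (SD, n = 3 each). With the other classical cadherins added, *Cdh5* took 43.2% ± 8.13 of the level with vehicle and 29.7% ± 6.65 with TGFβ, with overlapping groups, and *Cdh2* took 34.4% ± 5.83 and 36.9% ± 5.90 (SD, n = 3 each). VE-cadherin thus took a larger share than N-cadherin in vehicle libraries B and C and TGFβ library F, in cultures labelled as fibroblasts. Its share was smaller in A, D and E. By the longest transcript its share was 32.7% ± 7.17 with vehicle, below the 40.9% ± 5.84 of *Cdh2* (SD, n = 3 each). By that length it was the larger only in C, at 40.5% against 34.2%.

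**Figure D4:**
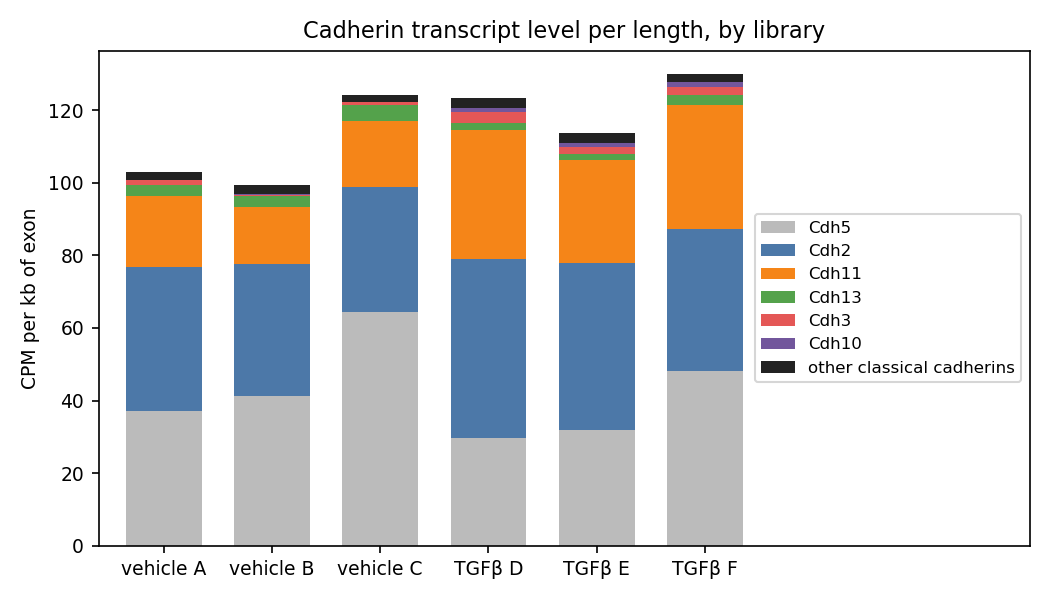
CPM per kb of exon of the classical cadherins and *Cdh13*, stacked for each library. *Cdh5* (grey) takes 36.0% to 52.0% of the vehicle bars and 24.1% to 37.1% of the TGFβ bars, and the *Cdh11* part (orange) is larger in each TGFβ bar than in any vehicle bar.

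By GENCODE M21 on GRCm38 (the build also called mm10), all 10 genes are protein-coding, and 3 of them lie on chromosome 8 and 2 each on chromosomes 9 and 15. *Cdh3* (ENSMUSG00000061048) spans 106510891 to 106557297 of chromosome 8 on the plus strand, *Cdh13* (ENSMUSG00000031841) 118283733 to 119324921 on the plus strand and *Cdh11* (ENSMUSG00000031673) 102632095 to 102785642 on the minus strand. On chromosome 15, *Cdh6* (ENSMUSG00000039385) spans 13028701 to 13173675, minus strand, and *Cdh10* (ENSMUSG00000022321) 18818947 to 19014236, plus strand. On chromosome 9, *Icam1* (ENSMUSG00000037405) spans 21015985 to 21028817, plus strand, and *Ncam1* (ENSMUSG00000039542) 49502136 to 49798925, minus strand. *Vcam1* (ENSMUSG00000027962) spans 116109949 to 116129688 of chromosome 3, minus strand, *Cdh4* (ENSMUSG00000000305) 179442431 to 179899373 of chromosome 2, plus strand, and *Cdh2* (ENSMUSG00000024304) 16588877 to 16809246 of chromosome 18, minus strand. At most 0.0359% of the 75-base windows of any of the 10 occur in transcripts of another gene, and annotated genes whose exons overlap theirs held at most 0.047% as many counts.

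The other genes of these families and their partners were taken as whole lists and tested in the same fit over 14334 genes, with edgeR's quasi-likelihood test and Benjamini-Hochberg adjustment, against the 40.7% called over all genes. The median log2FC over all genes was -0.00. Of the 12 other classical cadherins, 10 had reads and 3 could be tested, and none passed the threshold by edgeR (0 at an unadjusted p under 0.05), DESeq2 or limma-voom. *Cdh5*, averaging 200.0 ± 62.3 CPM in vehicle and 154 ± 42.4 CPM in TGFβ libraries (SD, n = 3 each), had a log2FC of -0.38 (standard error 0.24, adjusted p = 0.255 from edgeR). It passed only without libraries C and F, with an adjusted p of 0.00665 from edgeR. *Cdh19*, a cadherin of Schwann cells, had a log2FC of 0.21 (standard error 0.20, adjusted p = 0.443 from edgeR).

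Desmosomes tie cells to intermediate filaments through their own cadherins, plakoglobin, plakophilins and desmoplakin. Of 15 desmosome genes, 10 had reads and 7 were tested, and 5 rose and 1 fell, with a median log2FC of 0.79. *Pkp1* (plakophilin 1) rose from 0.990 ± 0.260 to 5.95 ± 2.03 CPM (SD, n = 3 each), a log2FC of 2.58 (adjusted p = 0.000417 from edgeR). *Dsp* (desmoplakin) rose from 8.12 ± 1.81 to 38.7 ± 11.5 CPM (SD, n = 3 each), a log2FC of 2.25 (adjusted p = 0.000264 from edgeR). *Jup* (plakoglobin, the catenin shared by desmosomes and adherens junctions) rose from 185 ± 18.6 to 378 ± 14.0 CPM (SD, n = 3 each), a log2FC of 1.03 (adjusted p = 5.34e-05 from edgeR). *Dsg2*, the desmosomal cadherin that could be tested, fell by 1.08 on the log2 scale from 2.88 ± 0.708 to 1.36 ± 0.0747 CPM (SD, n = 3 each, adjusted p = 0.00488 from edgeR). The genes named that rose encode plaque proteins, and *Dsg2* was at most 3.65 CPM in any library. *Pkp1* and *Dsp* were the highest of their groups in libraries A (1.26 and 10.1 CPM) and D (8.29 and 51.9 CPM), those highest in mesothelial and epithelial markers. *Jup* was highest in A (198 CPM) and E (393 CPM). The part of mesothelial and epithelial cells in these levels was not tested.

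The catenins and adaptors that link cadherins to actin numbered 14, of which 13 were tested, with 4 higher, 4 lower and a median log2FC of -0.03. The core of the complex differed little. *Ctnnb1* (β-catenin) had 709 ± 7.66 and 778 ± 20.0 CPM (SD, n = 3 each), a log2FC of 0.14 (adjusted p = 0.0374 from edgeR), a call that was lost in 9 of 14 alternatives, with each library left out among them. *Ctnna1* (α-catenin) had a log2FC of 0.07 (adjusted p = 0.199 from edgeR) and *Ctnnd1* (p120-catenin) of 0.11 (adjusted p = 0.224 from edgeR). *Ctnnd2* (δ-catenin, known from neurons) rose by a log2FC of 1.82 (adjusted p = 0.000544 from edgeR) to 3.37 ± 0.373 CPM (SD, n = 3), and *Ajuba*, a LIM protein of junctions, by 0.78 (adjusted p = 7.33e-05 from edgeR). *Pkp4*, a p120 relative, had a log2FC of 0.19 (adjusted p = 0.0361 from edgeR), which was lost in 9 of 14 alternatives, among them those without library A, B, D, E or F. *Ctnna2*, the neural α-catenin, fell by 1.40 (adjusted p = 0.00604 from edgeR), *Ctnnal1* by 1.22 (adjusted p = 0.000459 from edgeR) and *Arvcf*, another p120 relative, by 1.09 on the log2 scale (adjusted p = 0.0029 from edgeR).

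**Figure D5:**
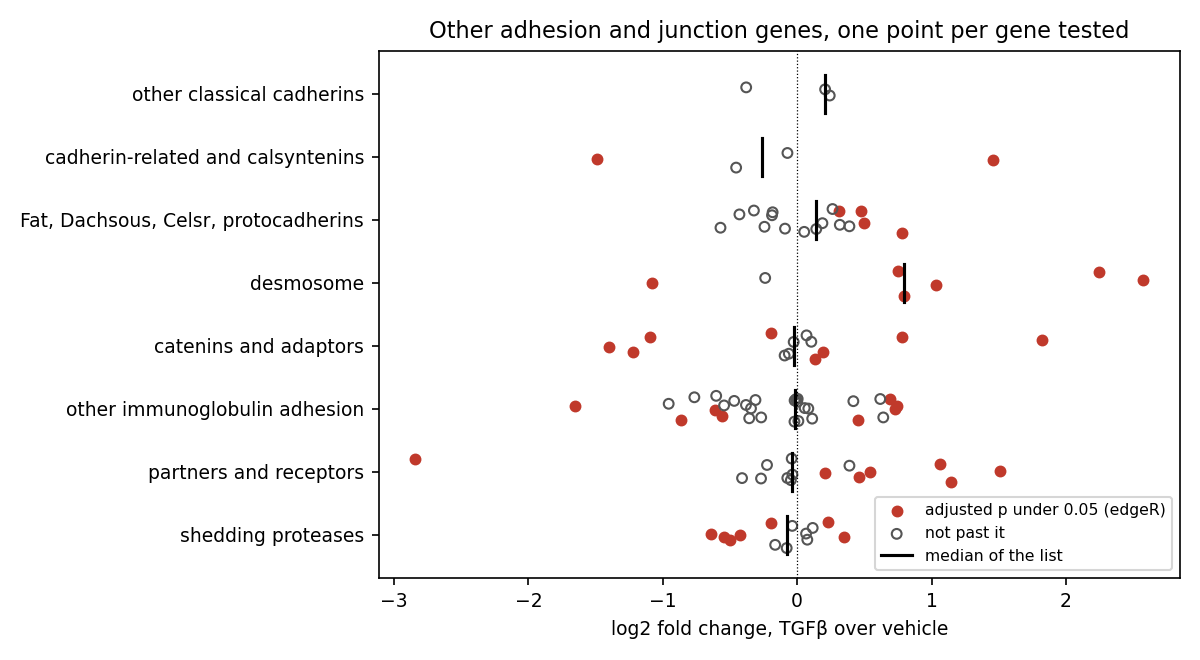
Log2FC of each gene tested in the 8 lists, with filled points past an adjusted p of 0.05 by edgeR and a bar at each list's median. The desmosome list has its median at 0.79 with 5 genes higher and 1 lower, and the other 7 medians lie between -0.26 and 0.21.

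Of the 45 other immunoglobulin adhesion molecules, 41 had reads and 30 were tested, of which 4 were higher and 4 lower, 26.7% in all, with a median log2FC of -0.02. The nectins, which start adherens junctions by binding across cells, moved in both directions. *Nectin1* rose from 30.4 ± 0.055 to 50.8 ± 1.44 CPM (SD, n = 3 each), a log2FC of 0.74 (adjusted p = 1.52e-05 from edgeR), and *Nectin3* and the poliovirus receptor *Pvr* rose by 0.69 (adjusted p = 4.46e-05) and 0.73 (adjusted p = 0.00108 from edgeR). *Nectin2*, named here after its values were seen, fell by 0.56 on the log2 scale (adjusted p = 0.000382 from edgeR). *Nfasc* (neurofascin) fell by 1.66 (adjusted p = 0.000514 from edgeR), *Sdk1* (sidekick 1) by 0.87 (adjusted p = 6.06e-05 from edgeR) and *Bcam*, which binds laminin, by 0.61 on the log2 scale (adjusted p = 3.38e-05 from edgeR). The endothelial *Pecam1* had a log2FC of -0.34 (adjusted p = 0.226 from edgeR), which passed only without libraries C and F (0.009).

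Of 17 partners of the members, 15 were tested, and 6 rose and 1 fell. Among the integrins that bind VCAM1, *Itga4* rose from 13.6 ± 3.19 to 28.6 ± 8.20 CPM (SD, n = 3 each), a log2FC of 1.07 (adjusted p = 0.00691 from edgeR), and its partner chain *Itgb1* by 0.21 (adjusted p = 0.00941 from edgeR). *Itga9*, named here after its values were seen, was highest of its groups in C and F. It rose by 0.46 (adjusted p = 0.0296 from edgeR), from 93.6 ± 13.7 to 129 ± 22.5 CPM (SD, n = 3 each), among these integrins. Of those that bind ICAM1, *Itgal* rose by 1.15 (adjusted p = 0.012 from edgeR) to 2.68 ± 0.146 CPM (SD, n = 3), while its partner chain *Itgb2* had a log2FC of -0.27 (adjusted p = 0.217 from edgeR). Leukocyte markers did not pass the test in any of 8 genes. *Itga4* was the highest of its groups in libraries A (17.3 CPM) and D (38.0 CPM), which were also the highest in mesothelial and epithelial markers. The part of leukocytes, or of mesothelial and epithelial cells, in these integrin levels was not tested. For NCAM1, the enzyme *St8sia2*, which adds polysialic acid to it, rose by 1.51 (adjusted p = 0.0115 from edgeR) from 0.779 ± 0.361 to 2.24 ± 0.724 CPM (SD, n = 3 each). The more abundant *St8sia4*, with the same activity, had a log2FC of -0.41 (adjusted p = 0.207 from edgeR). *Gfra1*, a GDNF receptor that can work with NCAM1, fell by 2.84 on the log2 scale (adjusted p = 1.91e-05 from edgeR), from 31.3 ± 6.42 to 4.36 ± 0.418 CPM (SD, n = 3 each). *Fgfr1* had a log2FC of -0.04 (adjusted p = 0.654 from edgeR).

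Of 21 Fat, Dachsous, Celsr and non-clustered protocadherin genes, 17 were tested and 4 rose, with a median log2FC of 0.14. *Pcdh19* rose by 0.78 (adjusted p = 0.00305 from edgeR), *Pcdh18* by 0.50 (adjusted p = 0.0172 from edgeR) and *Fat1*, the most abundant, by 0.47 (adjusted p = 0.0107 from edgeR), from 1037 ± 11.6 to 1442 ± 233 CPM (SD, n = 3 each). The call of *Pcdh18* was lost without library C, D or E (largest adjusted p 0.0602 from edgeR). The fourth gene was *Pcdh7* (log2FC 0.31), named after its values were seen. Without C and F, 8 of these genes passed, 7 of them as higher. Of the 12 cadherin-related genes and calsyntenins, 9 had reads and 4 were tested. *Clstn2* (calsyntenin 2) rose by 1.46 (adjusted p = 0.00644 from edgeR), and *Cdh23*, named after its values were seen, fell by 1.49 on the log2 scale (adjusted p = 0.0089 from edgeR), both under 2.2 CPM in every library.

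Some cadherins and immunoglobulin adhesion molecules are cut at the membrane by ADAM proteases, and some of these then by γ-secretase. Of 13 genes of such proteases, all tested, 2 rose and 5 fell, with a median log2FC of -0.08. *Adam10*, the main sheddase of N-cadherin, rose by 0.23 (adjusted p = 0.016 from edgeR), a call lost without library C, D or E (largest adjusted p 0.0551 from edgeR). *Adam17*, which sheds VCAM1 and ICAM1, fell by 0.50 on the log2 scale (adjusted p = 0.000531 from edgeR), from 134 ± 9.74 to 94.4 ± 3.59 CPM (SD, n = 3 each). Of the γ-secretase genes, *Psen2* fell by 0.55 (adjusted p = 0.000205 from edgeR) and *Aph1c* by 0.64 on the log2 scale (adjusted p = 0.0183 from edgeR), the latter a call lost without library A, B, D or F. *Bace1*, a protease of another class, rose by 0.35 (adjusted p = 0.00212 from edgeR).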

How the data were processed

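The authors made single-end 75-base reads of stranded poly(A) libraries, with mm10 as the genome and DESeq2 as the test. The aligner, counting tool and annotation are not given in the sources used here. The deposited values used here are raw counts for each gene in each library. The authors' normalized mean, fold changes and p-values in the same table were not used. No other column of per-sample values was left out. Counts were scaled with TMM factors, filtered with filterByExpr and tested with edgeR 4.0.16 (quasi-likelihood, no covariate, R 4.3.3). An adjusted p under 0.05 was called, and the standard error is the fold change over the square root of F. Exact intervals at the depth of 27851677 to 31072338 counts a library cover counting error only. Of the 25140 genes, 25086 matched GENCODE M21, which gave positions and exon lengths. In simulated counts with 200 genes changed 2-fold, edgeR recovered 100% of them over 14311 genes, and 1.96% of its calls were false. The simulation gave every gene the same coefficient of variation between libraries, 7.97%, and changed only genes with many counts. Far fewer genes were changed in it than were called in the data. It checks the code and does not give the power or the share of false calls in these data.

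The members and lists were chosen with earlier results of these data known. Named are the members, fixed partners and markers, and in each list up to 3 called rises and 3 called falls of at least 1 CPM. Alternatives were DESeq2's size factors, upper quartile scaling, DESeq2 1.42.0, limma-voom (limma 3.58.1), no filter, 1 CPM in 3 libraries and each library left out. Leaving out C and F and an endothelial covariate (mean log2(CPM + 0.5) of the 10 markers) were added after seeing the data.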

Additional observations from a re-analysis of the deposited data

How the results depend on the processing

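No paired analysis was possible because the count columns name the group and carry no replicate number. Libraries at the same place in their group's columns deviated to the same side of the group mean at every place for *Cdh13* (A -0.13 and D -0.15, B -0.23 and E -0.27, C 0.36 and F 0.41). The same held for *Cdh3*, *Cdh11*, *Ncam1*, *Vcam1*, *Cdh5* and *Pecam1*. It did not hold at every place for *Cdh2*, *Icam1* and *Cdh10* (A -0.05 and D 0.03). No label names these libraries as pairs, so the tests here do not use this. If they are pairs, the tests would tend to overstate the error for genes that deviate alike and may understate it for others. The 9 members fitted kept their direction in each of the 14 alternatives that kept them (*Cdh6* does not reach 1 CPM in 3 libraries). *Cdh2* was not past the threshold in 4 of the alternatives (without B, C, D or E) and *Cdh13* in 3 (without C, D or E). The alternatives refit the same libraries from which the members were picked, so neither their directions nor their calls are a test of the members. The genes called over all genes ran from 4489 to 5481 with each library left out, against 5828, and stayed within 1.5 times of it under the other alternatives. Of 31 genes outside the members that were called and named by the rule above or as partners, 26 stayed called in all 14 alternatives. The others were *Pcdh18*, *Pkp4*, *Ctnnb1*, *Adam10* and *Aph1c*. Without the library of each group highest in endothelial markers (C and F), 1 classical cadherin outside the members was called against 0, 8 protocadherin genes against 4 and 5 catenin genes against 8. With the endothelial covariate, 7 protocadherin genes were called. The filter of 1 CPM left 1 cadherin-related gene called against 2, since it took *Cdh23* out. The cause of the other shifts was not tested. Scaling moved the median log2 fold change of all genes to -0.02 at most. The depth left *Cdh4* untested in the filtered fit.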
